A study of Mus musculus with 4 samples.

Results

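Oxidative phosphorylation is carried out by 5 protein complexes of the inner mitochondrial membrane, and the genes described here encode the subunits of these complexes that lie in the nuclear genome. They were chosen by name, as all genes on the array whose symbol begins with Ndufa, Ndufab, Ndufb, Ndufc, Ndufs or Ndufv and a number (complex I), with Sdh (complex II), with Uqcr or is Cyc1 (complex III), with Cox4i, Cox5, Cox6, Cox7 or Cox8 (complex IV), or with Atp5 (complex V). The rule found 130 probes of 84 genes among 56605 probes and 27176 named genes. Complex I had 37 of these genes, complex II 4, complex III 9, complex IV 17 and complex V 17. The names also catch a few proteins that are not subunits of the complex they are named for. Cox7a2l is a factor of supercomplex assembly, Ndufa4 is found in complex IV, and Atp5s and Atp5sl are named Dmac2l and Dmac2 in RefSeq.

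Complexes I and II pass electrons from NADH and succinate to ubiquinone, complex III passes them on to cytochrome c, and complex IV passes them to oxygen. Complexes I, III and IV pump protons, and complex V, the ATP synthase, uses the return of these protons to make ATP. Neurons depend on this ATP for their ion pumps and synapses, and several subunits of complex IV exist as a common form and as a form typical of heart and skeletal muscle or of another tissue.

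The samples came from transgenic mice, which the submitters call MSA Tg (multiple system atrophy, a neurodegenerative disease with inclusions in oligodendrocytes), and from wild-type mice, all aged 24 weeks and on a mixed C57BL/6, 129 and C3H background. There were 4 groups of 1 array each: transgenic brainstem/cerebellum, wild-type brainstem/cerebellum, transgenic spinal cord and wild-type spinal cord. The sample titles carry the letters PLP, but the labels spell out neither the transgene nor its promoter, and they do not say whether an array holds 1 animal or a pool. With 1 array in each group there is no replicate, no test was possible and no p-value is given, so every difference is between 2 arrays.

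Levels are log2 of the processed spot intensity minus the array's 75th percentile, so a level of 0 lies at that percentile and a difference of 1 is 2-fold. The brightest probe stood for a gene with several probes. The percentile lay at intensities of 463 (transgenic) and 445 (wild type) in brainstem/cerebellum and of 414 (transgenic) and 686 (wild type) in spinal cord, with 59.2% to 64.0% of spots well above background. Repeated spots of 1 probe gave a technical SD of a difference between 2 arrays of 0.08 for the brightest probes and 0.12 at a log2 intensity of 8 to 10, which leaves out animals, extractions and hybridisations. The tissue labels stood against defining genes as follows: Pcp2, a gene of cerebellar Purkinje cells, was lower by 9.30 and Hoxd8, a gene of the posterior body axis, was higher by 7.44 in spinal cord than in brainstem/cerebellum of transgenic mice. The wild-type spinal cord array was scanned from another slide than the other 3 arrays, so slide and group cannot be told apart in the genotype difference of spinal cord and in the tissue difference of wild-type mice. The genotype difference in brainstem/cerebellum and the tissue difference in transgenic mice lie within 1 slide.

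Of the 84 genes, 83 were well above background on all 4 arrays. Cox8c, a form of complex IV subunit 8 known from testis, was not well above background on any array. Probe sequences show how the probes of these genes differ in base composition, which bears on the spinal cord values given further on. The first 30 of the 60 bases of 7 probes, 5′ to 3′ with G and C in capitals, are as follows, and their positions are those of build mm9 in the files.
Cox6a2, chr7:135349160-135349219, 55% G or C in the whole probe: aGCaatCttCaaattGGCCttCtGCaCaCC
Cox8b, chr7:148084852-148084911, 40%: CtataaaaaGaGCtCCGCaGCatGaaGttG
Cox6c, chr15:35861751-35861810, 35%: CGCtCCtGaaCtatGaaaCatGaatatGtG
Ndufa8, chr2:35891871-35891930, 28.3%: atCaCaGaCattaaCaaaaaaGttaattta
Cox7c, first probe, chr13:86186301-86186360, 55%: tGtaGaaaGGaGaGttaGGtGGtaCGGCCa
Cox7c, second probe, chr13:86184486-86185363 (across a splice junction), 28.3%: aaataaGGatatttaattCatCCCtttaaC
Uqcrc1, chr9:108851624-108851683, 50%: tCaGCtGtGtGCaGCCaGttaCCCCCaata

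The first question was whether subunit genes differ between transgenic and wild-type brainstem/cerebellum. They were lower in the transgenic sample by a small and even amount. The difference was below 0 for 76 of 83 genes, where it was below 0 for 59.3% of all 16935 genes measured. The median was -0.14 over subunit genes and -0.06 over all genes. Most subunit probes are bright, and bright probes were lower as a set. Over all 5470 probes with a mean log2 intensity of at least 11 the median was -0.09, closer to that of the subunit genes. By complex the median was -0.14 in complex I, -0.15 in complex II, -0.14 in complex III, -0.17 in complex IV and -0.14 in complex V. The complexes thus had close medians. No gene was 2-fold lower, against 0.295% of all genes, and 1 gene, Cox6a2, was 2-fold higher, against 2.69% of all genes. Single genes were close to the technical error: 33 of 83 were lower by more than 2 technical SDs of single spots, against 18.2% of all genes. Relative to all genes the median lay 0.09 lower, and this gap was 0.05 under quantile normalization and 0.03 under cyclic loess, so the scaling sets much of its size. With each array centred on its median, 326 of all genes were 2-fold higher and 103 lower, against 456 and 50.

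In spinal cord the same genes were lower in the transgenic sample by a larger and less even amount. The difference was below 0 for 78 of 83 genes, against 53.4% of all 17230 genes measured. The median was -0.49 over subunit genes and -0.05 over all genes. It was -0.49 in complex I, -0.45 in complex II, -0.56 in complex III, -0.42 in complex IV and -0.52 in complex V. At the 2-fold threshold 7 genes were lower, against 6.41% of all genes, and 2 were higher, against 8.49% of all genes, so the share past 2-fold was near that of all genes. At 1.5-fold, 29 genes were lower, against 17.7% of all genes. The gap to the median of all genes was 0.44. It was 0.38 to 0.40 under quantile normalization, cyclic loess, normexp with quantile normalization and the authors' values, while scalings that shift a whole array cannot change it. Scaled on the spike-in probes, 27 subunit genes were 2-fold lower, while over all genes the split became 881 higher and 2859 lower, against 1462 higher and 1104 lower.

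**Figure D1:**
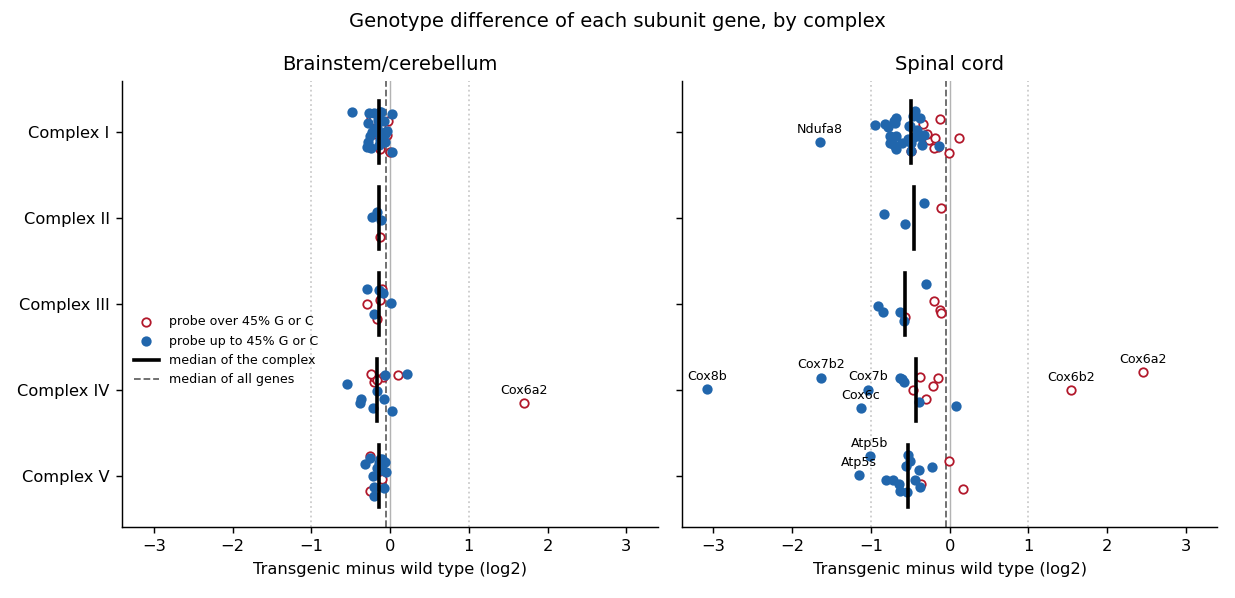
Each point is 1 subunit gene well above background, placed by its transgenic minus wild-type difference on the log2 scale, with brainstem/cerebellum on the left and spinal cord on the right and 1 row for each complex. Filled points have a probe with up to 45% G or C and open points a richer one, thick bars are the median of the complex, the dashed line is the median of all genes and dotted lines mark 2-fold. In spinal cord the complexes have medians between -0.56 and -0.42, and the median is -0.18 over the open points and -0.59 over the filled ones, with overlap between them.

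The lower spinal cord values went with the base composition of the probes. Over 125 subunit probes above background, the median difference was -0.83 for the 19 probes with up to 35% G or C, -0.62 for the 20 with 35 to 40%, -0.51 for the 52 with 40 to 45% and -0.19 for the 34 with more. Across these probes the difference and the G and C content had a Pearson correlation of 0.47 and a Spearman correlation of 0.55, given as a description over probes that share 2 arrays. Over all 32160 probes above background the same 4 medians were -0.11, -0.01, 0.03 and -0.04. Over the 5470 bright probes, with a mean log2 intensity of at least 11, they were -0.24, -0.16, -0.06 and -0.02, a smaller climb in the same direction with a Spearman correlation of 0.18. Probes of cytosolic ribosomal proteins had medians of -0.40 in the poorest class and 0.54 in the richest, a trend of the same direction. In brainstem/cerebellum the subunit probes had medians of -0.08, -0.12, -0.16 and -0.18 from the poorest to the richest class, a weak trend in the other direction.

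Taking the 25 subunit genes whose probe has more than 45% G or C, the median was -0.16 in brainstem/cerebellum and -0.18 in spinal cord, against -0.05 and -0.03 for all genes with such probes. Of these 25 genes, 23 were below 0 in brainstem/cerebellum, against 57.1% of all genes with such probes, and 21 in spinal cord, against 52.0%. The other 58 genes had medians of -0.14 in brainstem/cerebellum and -0.59 in spinal cord, against -0.06 and -0.05 for all genes with such probes. All 7 genes that were 2-fold lower in spinal cord belong to these 58. The greater size of the spinal cord difference was thus seen in the genes with probes poorer in G and C. The part of the base composition, the slide and the RNA in it was not tested.

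**Figure D2:**
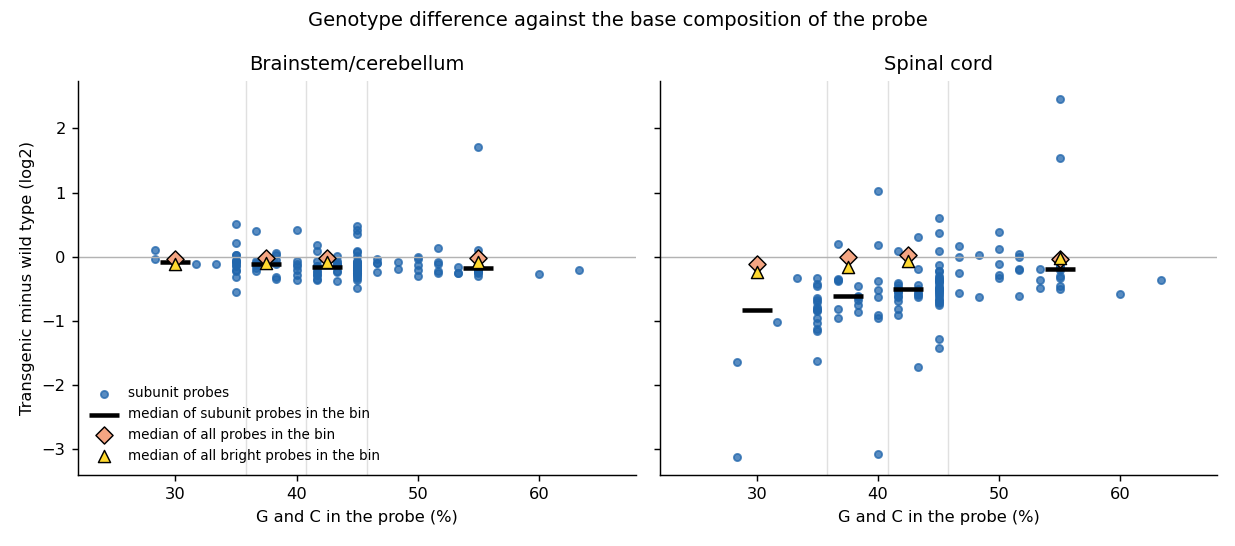
Each point is 1 subunit probe, placed by its G and C content in percent and by its transgenic minus wild-type difference on the log2 scale, in brainstem/cerebellum (left) and spinal cord (right). Black bars are the medians of the subunit probes diamonds those of all probes and triangles those of all bright probes in the classes up to 35%, 35 to 40%, 40 to 45% and above 45%. In spinal cord the bars climb from -0.83 to -0.19 while the triangles climb from -0.24 to -0.02 and the diamonds stay between -0.11 and 0.03.

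Several probes of the same gene allow the comparison to be made within 1 transcript. In 8 subunit genes, 2 bright probes (mean log2 intensity of 10 or more) differed by at least 5 percentage points in G and C content. In spinal cord the richer probe gave the higher value in 7 of these 8 genes, against 66.0% of 606 such genes on the whole array. The median was -0.49 for the richer and -0.72 for the poorer probe. The richer probe of Atp5b, the catalytic beta subunit of the ATP synthase head, gave -0.62 and the poorer one -1.01. Cyc1, cytochrome c1 of complex III, had -0.51 by the richer and -0.91 by the poorer probe. Atp5h was the exception, with -0.63 by the richer and -0.37 by the poorer probe. All 16 values were below 0, so the direction did not depend on the probe in these genes while its size did. In brainstem/cerebellum the richer probe gave the higher value in 2 of the 8 genes.

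**Figure D3:**
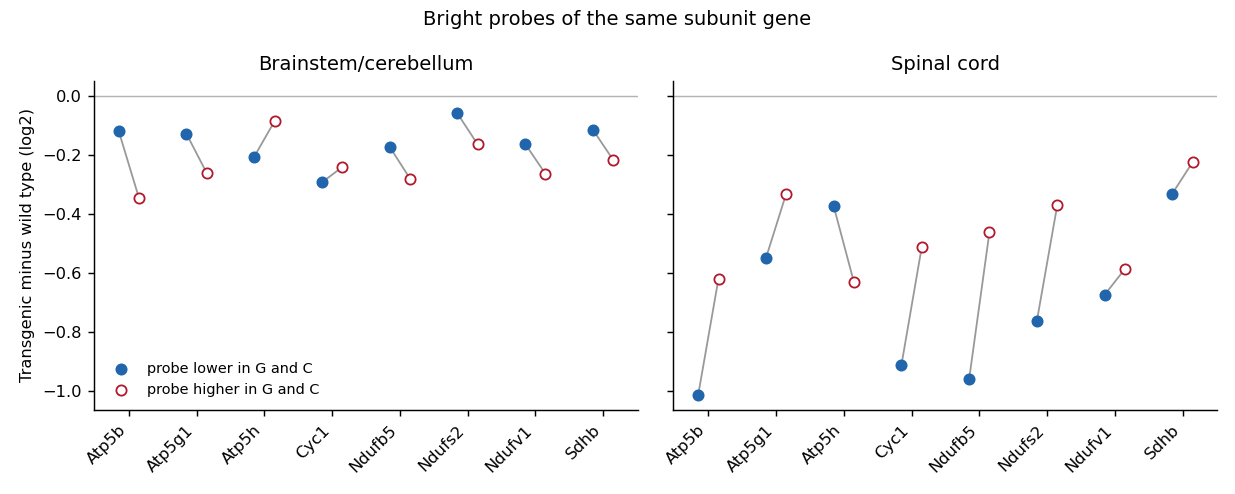
For 8 subunit genes, joined points are the bright probe poorer in G and C (filled) and the one richer in them (open) of the same gene, with the transgenic minus wild-type difference on the log2 scale in brainstem/cerebellum (left) and spinal cord (right). Every point lies below 0, and in spinal cord 7 of 8 open points lie above their filled partner.

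Over all 32 subunit genes with several measured probes, the differences of the probes spanned a median of 0.39 in spinal cord and 0.16 over 30 genes in brainstem/cerebellum. In spinal cord 6 genes had a span over 1 (Atp5g3, Atp5o, Cox7c, Ndufs3, Sdha and Uqcrb), in brainstem/cerebellum none. For Ndufs3, Sdha and Atp5g3 the deviating probe lies on another transcript than the brightest one and is much dimmer. The probes of Cox7c shown above gave -0.30 for the first and -3.13 for the second. The second probe stood at -0.35 in transgenic and -0.45 in wild-type brainstem/cerebellum, and at -0.67 in transgenic and 2.46 in wild-type spinal cord. The wild-type spinal cord array alone was high by this probe, which was not so by the first probe. The 2 probes of Atp5o, which start at positions 708 and 638 of the same transcript and both have 45% G or C, gave -0.23 and -1.28.

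Uqcrb, a small subunit of complex III that binds at the ubiquinone site, has 2 probes that overlap on the same transcript, and their shared stretch is shown because they gave unlike values. The overlap of 23 bases, on chromosome 13, differs at 1 base, printed in lower case.
Uqcrb, probe starting at transcript position 309: AGGAGAGAGAgGAGTGGGCAAAG
Uqcrb, probe starting at transcript position 346: AGGAGAGAGAaGAGTGGGCAAAG
The substitution is G11A, counted from 1 at the 5′ end of the overlap, with the base of the probe at 309 first. The probe at 309 gave -0.10 in brainstem/cerebellum and -1.72 in spinal cord. The probe at 346 gave -0.10 in brainstem/cerebellum and -0.56 in spinal cord. By the probe at 309 the level was 1.96 in transgenic and 2.06 in wild-type brainstem/cerebellum, and 1.67 in transgenic and 3.39 in wild-type spinal cord, so the wild-type spinal cord array again stood above the other 3.

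By role, the core of complex I, which holds the flavin and the iron-sulphur clusters, had a median of -0.16 over 7 genes in brainstem/cerebellum and -0.49 in spinal cord. The 29 accessory subunits of the complex had medians of -0.14 and -0.46, so core and accessory genes had close medians. Ndufv2, a core subunit with an iron-sulphur cluster, stood at 4.37 in transgenic and 4.35 in wild-type brainstem/cerebellum, the highest difference of the complex there at 0.02. In spinal cord it stood at 3.99 in transgenic and 4.95 in wild-type mice, a difference of -0.95. Ndufc1, an accessory subunit of the membrane arm, had the lowest difference of the complex in brainstem/cerebellum. Its level was 5.17 in transgenic and 5.66 in wild-type brainstem/cerebellum (-0.49), and 4.77 in transgenic and 5.47 in wild-type spinal cord (-0.70).

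Ndufa8, an accessory subunit on the intermembrane side, was the complex I gene past 2-fold. Its level was 2.37 in transgenic and 2.41 in wild-type brainstem/cerebellum. In spinal cord it was 1.68 in transgenic and 3.33 in wild-type mice, a difference of -1.65. The wild-type spinal cord value was the highest of the 4, and its probe was among the poorest in G and C. Ndufa2, an accessory subunit, had the highest difference of the complex in spinal cord, 0.12, with 5.69 in transgenic and 5.57 in wild-type mice. Its brainstem/cerebellum levels were 5.74 in transgenic and 5.78 in wild-type mice.

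In complex II all 4 genes were below 0 in both tissues. Sdha, the flavoprotein that oxidises succinate, stood at 4.02 in transgenic and 4.24 in wild-type brainstem/cerebellum (-0.23). In spinal cord it stood at 3.91 in transgenic and 4.74 in wild-type mice (-0.83). These were the lowest differences of the complex in each tissue. Sdhb, the iron-sulphur subunit, had -0.11 in brainstem/cerebellum, from 5.25 in transgenic and 5.37 in wild-type mice, and -0.33 in spinal cord, from 5.29 in transgenic and 5.62 in wild-type mice. Sdhc, a membrane anchor, had 3.20 in transgenic and 3.33 in wild-type brainstem/cerebellum and 3.07 in transgenic and 3.17 in wild-type spinal cord. Its differences, -0.13 and -0.11, were alike in the tissues. The probe of Sdhc has 55% G or C and that of Sdha 35%.

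In complex III the 2 genes of the electron-carrying subunits had the lowest spinal cord values by their brightest probes. Among the brightest probes of the complex these were also the poorest in G and C, with 40% for Cyc1 and 35% for Uqcrfs1. The other Cyc1 probe, with 55%, gave -0.51 in spinal cord, which is above the -0.63 of Uqcrc2. Cyc1 stood at 4.98 in transgenic and 5.27 in wild-type brainstem/cerebellum (-0.29), and at 4.58 in transgenic and 5.50 in wild-type spinal cord (-0.91). Uqcrfs1, the Rieske iron-sulphur protein, had -0.09 in brainstem/cerebellum and -0.85 in spinal cord. Uqcrc1, a core protein, had the lowest difference of the complex in brainstem/cerebellum and the highest in spinal cord. Its level was 4.72 in transgenic and 5.02 in wild-type brainstem/cerebellum (-0.30), and 4.46 in transgenic and 4.57 in wild-type spinal cord (-0.11). Uqcrc2, the other core protein, had the highest difference of the complex in brainstem/cerebellum, with 4.94 in transgenic and 4.93 in wild-type brainstem/cerebellum (0.01). Its spinal cord levels were 4.24 in transgenic and 4.88 in wild-type mice (-0.63).

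In complex V the 5 genes of the catalytic head had medians of -0.14 in brainstem/cerebellum and -0.45 in spinal cord, and the 10 genes of the membrane part and stalk -0.12 and -0.51. Atp5b stood at 6.08 in transgenic and 6.20 in wild-type brainstem/cerebellum, and at 5.88 in transgenic and 6.89 in wild-type spinal cord. Its spinal cord difference of -1.01 just passed 2-fold by the brightest probe. Atp5s was also past 2-fold in spinal cord, at -3.30 in transgenic and -2.15 in wild-type mice (-1.15), and at -2.97 in transgenic and -2.76 in wild-type brainstem/cerebellum (-0.21). Atp5sl had the lowest brainstem/cerebellum difference of the group, -0.33, from 2.75 in transgenic and 3.08 in wild-type mice, with 2.09 in transgenic and 2.73 in wild-type spinal cord.

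Atp5g1, Atp5g2 and Atp5g3 encode the same mature subunit of the rotor ring with different import sequences. Atp5g1 stood at 5.52 in transgenic and 5.65 in wild-type brainstem/cerebellum, and at 5.14 in transgenic and 5.69 in wild-type spinal cord (-0.55). Atp5g2 stood at 5.80 in transgenic and 5.90 in wild-type brainstem/cerebellum, and at 5.86 in transgenic and 5.70 in wild-type spinal cord (0.17). Atp5g3 stood at 5.75 in transgenic and 5.81 in wild-type brainstem/cerebellum, and at 5.42 in transgenic and 6.23 in wild-type spinal cord (-0.81). Differences in brainstem/cerebellum were -0.13 for Atp5g1, -0.10 for Atp5g2 and -0.06 for Atp5g3, and in spinal cord Atp5g2 alone of the 3 was higher in transgenic mice. The Atp5g2 probe was spotted 10 times on each array, with an SD over the spots of 0.05 in brainstem/cerebellum of either genotype, 0.08 in transgenic and 0.06 in wild-type spinal cord. Their probes have 43.3%, 46.7% and 35% G or C.

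Complex IV held the widest range, because of isoforms typical of muscle and other tissues. Cox6a2, the heart and skeletal muscle form of subunit 6a, stood at -0.12 in transgenic and -1.82 in wild-type brainstem/cerebellum, which is 3.26-fold higher in the transgenic sample. In spinal cord it stood at 1.84 in transgenic and -0.62 in wild-type mice, which is 5.50-fold higher. It was the only subunit gene past 2-fold in both tissues. The common form Cox6a1 had 7.94 in transgenic and 8.02 in wild-type brainstem/cerebellum, and 7.87 in transgenic and 8.08 in wild-type spinal cord, and so was slightly lower in both. The Cox6a2 probe has 55% G or C, and its difference stayed between 1.33 and 1.76 in brainstem/cerebellum and between 2.07 and 2.52 in spinal cord over 11 other settings.

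Cox8b, the heart and skeletal muscle form of subunit 8, ran the other way. It stood at -0.08 in transgenic and 0.28 in wild-type brainstem/cerebellum (-0.36). In spinal cord it stood at -2.63 in transgenic and 0.44 in wild-type mice, a difference of -3.08, or 8.44-fold lower in the transgenic sample. The transgenic spinal cord value was far below the other 3, which lay between -0.08 and 0.44. The common form Cox8a stood at 7.03 in transgenic and 7.09 in wild-type brainstem/cerebellum, and at 6.60 in transgenic and 7.23 in wild-type spinal cord (-0.63). Both genes have 1 probe.

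Cox6b2, a form of subunit 6b known from testis, was higher in transgenic spinal cord. It stood at 0.93 in transgenic and -0.61 in wild-type spinal cord, which is 2.90-fold higher, and at 0.46 in transgenic and 0.36 in wild-type brainstem/cerebellum. The wild-type spinal cord value was the lowest of the 4. The common form Cox6b1 had 2.83 in transgenic and 3.41 in wild-type spinal cord (-0.58), and 3.25 in transgenic and 3.47 in wild-type brainstem/cerebellum (-0.22). Cox7b2, a form of subunit 7b known from testis, was dim and had the lowest brainstem/cerebellum difference of all, -0.55, from -2.77 in transgenic and -2.22 in wild-type mice. In spinal cord it stood at -4.18 in transgenic and -2.54 in wild-type mice (-1.64). The common form Cox7b had 4.71 in transgenic and 4.69 in wild-type brainstem/cerebellum, and 4.08 in transgenic and 5.12 in wild-type spinal cord (-1.03).

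In the remaining isoform pairs both forms were lower in the transgenic sample of each tissue. Cox7a1, the heart and skeletal muscle form of subunit 7a, had 2.20 in transgenic and 2.45 in wild-type brainstem/cerebellum (-0.25), and 2.12 in transgenic and 2.58 in wild-type spinal cord (-0.46). The common form Cox7a2 had 6.14 in transgenic and 6.31 in wild-type brainstem/cerebellum (-0.17), and 5.69 in transgenic and 6.08 in wild-type spinal cord (-0.39). Cox4i2, the form of subunit 4 known from lung and low oxygen, had -1.91 in transgenic and -1.71 in wild-type brainstem/cerebellum (-0.20), and -2.13 in transgenic and -1.76 in wild-type spinal cord (-0.37). Its common form Cox4i1 had 7.15 in transgenic and 7.36 in wild-type brainstem/cerebellum (-0.21), and 6.94 in transgenic and 7.10 in wild-type spinal cord (-0.15). Thus the muscle forms Cox6a2, Cox8b and Cox7a1 did not move together.

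**Figure D4:**
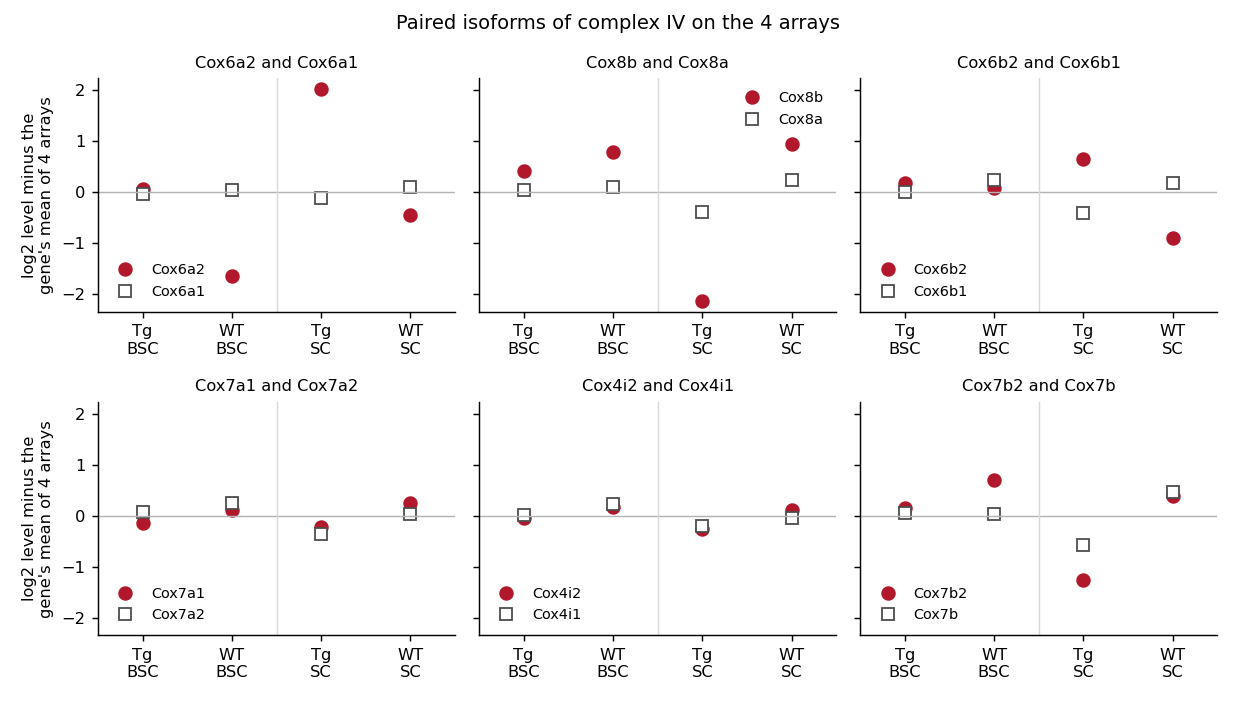
Each panel shows a tissue form of a complex IV subunit (filled circles) and its common form (open squares) on the 4 arrays, as the log2 level minus the gene's own mean of the 4 arrays. Tg is transgenic, WT wild type, BSC brainstem/cerebellum and SC spinal cord, with 1 array each. Cox6a2 is higher in the transgenic sample of both tissues, Cox8b is low on the transgenic spinal cord array alone, and Cox6a1 and Cox8a vary less over the arrays than these.

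Markers of other tissues were read beside these isoforms. Of 10 markers of skeletal muscle, which can remain on dissected tissue, 9 were measured in the genotype difference of spinal cord and all 9 were lower in the transgenic sample, with a median of -0.89. Without Pvalb, which neurons also express, their summed level, relative to the 75th percentile, was 3.09 in transgenic and 4.75 in wild-type spinal cord, and 0.51 in transgenic and 0.37 in wild-type brainstem/cerebellum. Of the 9 markers summed, 4 were well above background on each brainstem/cerebellum array, 8 in transgenic and 9 in wild-type spinal cord. The brainstem/cerebellum sums thus include values near background. Ckm, muscle creatine kinase, was not well above background in transgenic spinal cord or in brainstem/cerebellum of either genotype. In transgenic spinal cord Cox8b was lower and Cox6a2 was higher. In wild-type mice the log2 level of Cox8b was 0.28 in brainstem/cerebellum and 0.44 in spinal cord. The summed marker level, on a linear scale, was 0.37 and 4.75 there. Of 12 markers of microglia and macrophages, 6 were 2-fold higher in transgenic brainstem/cerebellum, against 2.69% of all genes, and 8 in transgenic spinal cord, against 8.49%. Their medians were 1.01 in brainstem/cerebellum and 2.01 in spinal cord. Below 0 were 1 marker in brainstem/cerebellum and 3 in spinal cord, with Ptprc the lowest at -0.49 and -0.85. The summed level of the 12 markers was 110 in transgenic and 58.3 in wild-type brainstem/cerebellum, and 338 in transgenic and 95.6 in wild-type spinal cord. The part of these cells in the isoform values was not tested.

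Cox6c, a common subunit of complex IV, was past 2-fold in spinal cord and had opposite signs in the tissues. It stood at 5.17 in transgenic and 4.96 in wild-type brainstem/cerebellum (0.21), and at 5.05 in transgenic and 6.18 in wild-type spinal cord (-1.12). The wild-type spinal cord array was high and the other 3 lay within 0.21 of each other. Cox5a, a common subunit with 1 probe, had -0.39 in brainstem/cerebellum and -0.60 in spinal cord. Cox7a2l stood at 5.84 in transgenic and 5.76 in wild-type spinal cord and was 1 of the 5 genes with a difference above 0 there, beside Ndufa2, Atp5g2, Cox6a2 and Cox6b2.

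The second question was how spinal cord differs from brainstem/cerebellum within each genotype. In transgenic mice, on 1 slide, subunit genes were lower in spinal cord: 77 of 83 were below 0, against 51.3% of all 17037 genes, with a median of -0.32 against -0.02 over all genes. By complex the medians were -0.33, -0.12, -0.33, -0.27 and -0.32 for complexes I to V, and all 37 genes of complex I and all 9 of complex III were below 0. Cox6a2 was 2-fold higher in spinal cord, against 10% of all genes, and Cox8b and Cox7b2 were 2-fold lower, against 6.25%. The next lowest was Uqcrc2, at 4.24 in spinal cord and 4.94 in brainstem/cerebellum (-0.69). The next highest were Cox6b2, with a difference of 0.47, and Cox7a2l, at 5.84 in spinal cord and 5.68 in brainstem/cerebellum (0.16). Among the 25 genes with probes over 45% G or C the median was -0.20, and it was -0.36 among the other 58. Of the 25 genes 21 were below 0, against 50.7% of all genes with such probes. Within the 8 genes with 2 bright probes the order was reversed. The richer probe gave the higher value in 1 of them, against 50.3% of 606 such genes. The medians were -0.48 for the richer and -0.35 for the poorer probe.

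In wild-type mice, across 2 slides, the median was -0.01, as over all genes (-0.01), and 43 of 83 genes were below 0, against 51.3% of all genes. This median is -0.14 under quantile normalization and 0.10 when scaled on spike-in probes, where that of all genes is 0.09. Relative to all genes it lay at 0.01, and at -0.10 under quantile normalization and -0.04 under cyclic loess. It lay at -0.13 under normexp with quantile normalization and at -0.11 by the authors' values. The gap thus changes with the scaling, and no direction is given. Here the values went with the probes: the median was 0.40 for the 18 subunit probes with up to 35% G or C and -0.24 for the 34 with more than 45%. Cox6c and Cox6a2 were 2-fold higher in spinal cord, against 6.79% of all genes, with differences of 1.21 and 1.20. Ndufa8 followed with 0.92. No gene was 2-fold lower, against 4.24% of all genes. The lowest was Cox6b2 at -0.97, before Uqcrc1 at -0.45 and Cox7c, at 4.84 in spinal cord and 5.20 in brainstem/cerebellum (-0.36). Among the 25 genes with probes over 45% G or C the median was -0.20, as in transgenic mice.

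Over the 4 arrays, the transgenic spinal cord array was the lowest for 75 of 83 subunit genes, which is 90.4%, against 37.5% of 16476 genes measured on all arrays. With probes over 45% G or C it was the lowest for 20 of 25 subunit genes, against 36% of all genes with such probes. The highest array was wild-type brainstem/cerebellum for 40 genes and wild-type spinal cord for 38. The genotype difference was lower in spinal cord than in brainstem/cerebellum for 68 of 83 genes, against 49.3% of all genes, with a median of -0.28 against 0.01. In the 25 genes with probes over 45% G or C this median was 0.01, and 12 of 25 were below 0, against 47.5% of all genes with such probes. Past 2-fold, the genotype difference was lower in spinal cord for 5 genes, against 5.39% of all genes, and higher for Cox6b2, against 4.37%. Across the 83 genes, which are not independent, the genotype differences of the tissues had a Pearson correlation of 0.58 and a Spearman correlation of 0.06. Without the tissue isoforms they were -0.14 and -0.08 over 77 genes, so the Pearson value rests on those isoforms, while over all 16474 genes the correlations were 0.59 and 0.46.

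The subunits encoded in the mitochondrial genome had 11 measured genes of 13 listed. Their median was -0.04 in brainstem/cerebellum and -0.70 in spinal cord, with 1 of 11, ND3, 2-fold lower in spinal cord, against 6.41% of all genes. These values were not split by the G and C content of the probes. ND3, a core subunit of complex I, stood at 4.38 in transgenic and 4.57 in wild-type brainstem/cerebellum, and at 4.34 in transgenic and 5.99 in wild-type spinal cord (-1.65). In transgenic mice, on 1 slide, these genes differed less between spinal cord and brainstem/cerebellum than the nuclear genes did: the median of their tissue difference was -0.05, against -0.32 for the nuclear subunit genes. In wild-type mice it was 0.51. COX1, a catalytic subunit of complex IV, had 7.27 in spinal cord and 7.32 in brainstem/cerebellum of transgenic mice, and 7.87 in spinal cord and 7.36 in brainstem/cerebellum of wild-type mice. ND6 was the only one of the 11 that was higher in transgenic spinal cord, with 0.34.

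Lists of other mitochondrial genes had values like those of the subunits in brainstem/cerebellum. The median there was -0.17 over 43 assembly factors of the complexes, -0.21 over 17 genes of the citrate cycle and pyruvate dehydrogenase, -0.17 over 21 genes of the mitochondrial membranes and matrix, and -0.17 over 78 mitochondrial ribosomal proteins. In spinal cord these medians were -0.31 over 44 assembly factors, -0.46, -0.32 and -0.16. Of the assembly factors, 2 were 2-fold lower in spinal cord, Sdhaf3 at -1.13 and Ndufaf4 at -1.03, against 6.41% of all genes, a share that does not set the list apart, and none was 2-fold higher. In brainstem/cerebellum 1 of them, Sco1, was 2-fold higher at 1.54, with a dim level of -2.92 in transgenic and -4.46 in wild-type mice, against 2.69% of all genes, and none was 2-fold lower. In the citrate cycle list 1 of 17 genes, Sucla2, was 2-fold lower in spinal cord at -1.10, against 6.41% of all genes. Idh2, an NADP-dependent isocitrate dehydrogenase, had the highest value of that list at 0.81 in spinal cord and 0.18 in brainstem/cerebellum. The subunit median of -0.49 was the lowest of these nuclear lists in spinal cord, next to that of the citrate cycle, and that of -0.14 was the highest of them in brainstem/cerebellum.

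Among 17 regulators of mitochondrial biogenesis the median was -0.11 in brainstem/cerebellum and -0.27 in spinal cord. In transgenic spinal cord 1 of the 17 was 2-fold lower, against 6.41% of all genes, a share that does not set the list apart. This was Esrrg, an estrogen-related receptor that drives oxidative genes, with a difference of -1.09. Of the 17 regulators, 13 were below 0 there, against 53.4% of all genes, and Yy1 was the highest at 0.46. Ppargc1a, the coactivator PGC-1alpha, had 0.86 in transgenic and 1.75 in wild-type spinal cord (-0.89), and 2.32 in transgenic and 2.27 in wild-type brainstem/cerebellum. Of 23 genes of glycolysis and lactate transport the median was -0.10 in brainstem/cerebellum and -0.16 in spinal cord. In that list 2 genes were 2-fold higher in transgenic spinal cord, against 8.49% of all genes, and 1 was 2-fold lower, against 6.41%. Hk2, a hexokinase, was the highest, at 0.11 in transgenic and -2.16 in wild-type mice. Hk1, the main hexokinase of brain, was the lower one, at 4.41 in transgenic and 5.96 in wild-type mice. In wild-type mice Hk1 was 1.57 higher in spinal cord than in brainstem/cerebellum, and the wild-type spinal cord array was alone on its slide. The cytosolic ribosomal proteins had medians of 0.03 in brainstem/cerebellum and 0.40 in spinal cord, opposite in sign to the subunits. In spinal cord their probes had medians of -0.40 up to 35% G or C and 0.54 above 45%.

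**Figure D5:**
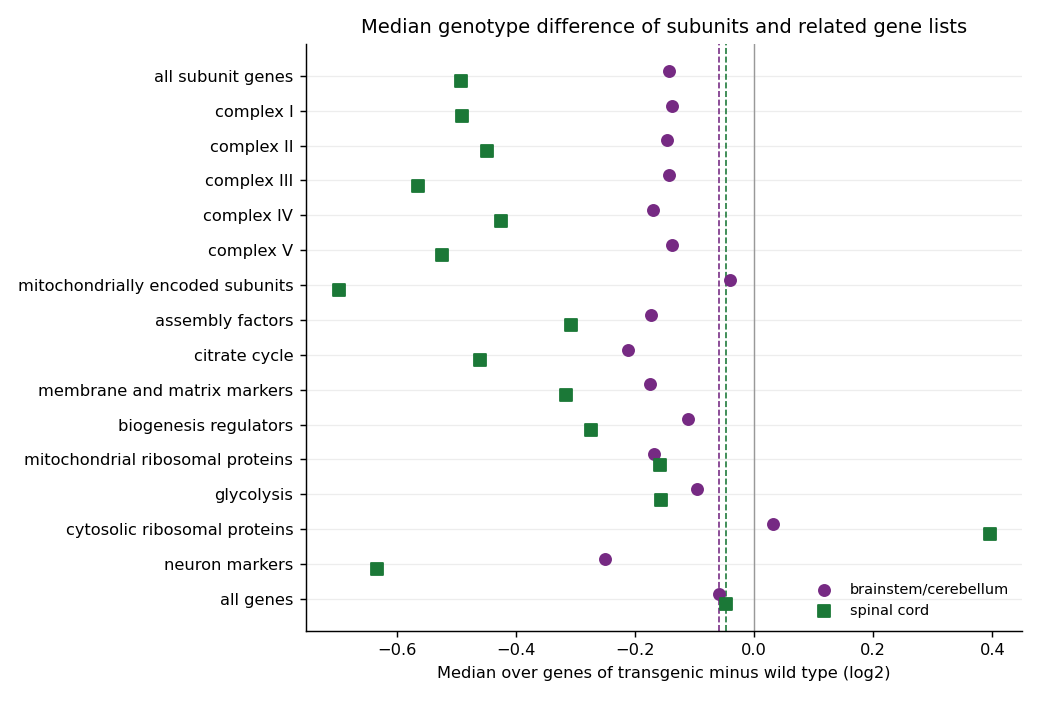
Points are the median transgenic minus wild-type difference on the log2 scale over the measured genes of each list, in brainstem/cerebellum (circles) and spinal cord (squares), and dashed lines are the medians of all genes. The complexes lie between -0.17 and -0.14 in brainstem/cerebellum and between -0.56 and -0.42 in spinal cord, next to neuron markers at -0.25 and -0.63 and opposite to cytosolic ribosomal proteins at 0.03 and 0.40.

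Neuron markers were lower beside the subunit genes. Of 12 markers, 10 were below 0 in brainstem/cerebellum and 12 in spinal cord, with medians of -0.25 and -0.63, and 3 were 2-fold lower in spinal cord, against 6.41% of all genes. These were the neurofilaments Nefh at -1.41, Nefm at -1.35 and Nefl at -1.15. Their summed level was 405 in transgenic and 476 in wild-type brainstem/cerebellum, and 358 in transgenic and 652 in wild-type spinal cord. Of 10 oligodendrocyte markers, 2 were below 0 in brainstem/cerebellum and 3 in spinal cord, with medians of 0.07 and 0.24. Their summed levels were 295 in transgenic and 262 in wild-type brainstem/cerebellum, and 484 in transgenic and 499 in wild-type spinal cord, so that the sum and the median run in opposite directions in spinal cord. Medians of the differences were 0.21 in brainstem/cerebellum and 0.34 in spinal cord for 8 astrocyte markers, and -0.14 and -0.37 for 6 endothelial markers. For choroid plexus markers they were -0.09 over 5 genes and -0.92 over 4. The astrocyte markers were mixed in spinal cord, with 2 of 8 2-fold higher, against 8.49% of all genes, and 2 lower, against 6.41%. In these bulk samples, fewer cells of a type and less RNA per cell cannot be told apart, and the part of cell composition in the subunit values was not tested.

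In spinal cord the isoform pair Cox8b and Cox8a had genotype differences of -3.08 and -0.63, of the same sign and of unlike size. Their promoters and that of the common form Cox6a1 are shown for their contrast in sequence. They are the 250 bases before the gene's start in RefSeq on build GRCm38.p6, on the minus strand in all 3, 5′ to 3′, with motif matches in capitals. RefSeq held promoters of 69 of the 84 genes, 75 in all.
Cox8b, chr7:140900447-140900696: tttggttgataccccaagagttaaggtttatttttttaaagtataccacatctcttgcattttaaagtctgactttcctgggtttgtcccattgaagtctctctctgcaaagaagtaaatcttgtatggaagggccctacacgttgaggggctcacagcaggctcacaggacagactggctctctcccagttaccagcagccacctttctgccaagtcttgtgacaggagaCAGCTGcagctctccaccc
Cox8a, chr19:7217617-7217866: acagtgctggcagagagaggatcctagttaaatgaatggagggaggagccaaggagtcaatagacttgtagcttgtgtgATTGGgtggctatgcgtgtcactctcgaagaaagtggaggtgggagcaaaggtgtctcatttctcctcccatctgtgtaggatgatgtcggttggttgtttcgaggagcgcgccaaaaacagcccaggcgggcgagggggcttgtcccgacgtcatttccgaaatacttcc
Cox6a1, chr5:115348959-115349208: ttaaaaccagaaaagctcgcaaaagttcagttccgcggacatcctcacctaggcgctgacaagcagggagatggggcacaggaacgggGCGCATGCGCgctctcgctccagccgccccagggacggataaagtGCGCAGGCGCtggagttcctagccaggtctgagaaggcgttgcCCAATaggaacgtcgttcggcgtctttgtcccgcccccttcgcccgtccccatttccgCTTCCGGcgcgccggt
The motifs were searched on both strands. They were the palindromic NRF1 site and the MEF2 core by name, the letters CCGGAAG of ETS factors such as GABP, the CCAAT box, the TATA box TATAAA and the E-box CAGCTG, and none of the matches shown overlap.

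The NRF1 site was found in 18.7% of the 75 subunit promoters and in 3.74% of all 32851 promoters of the same length. The ETS core was found in 16% of subunit promoters and 6.91% of all, and CCAAT in 42.7% and 33.9%. TATAAA was found in 9.33% of subunit promoters and 12.4% of all, and CAGCTG in 8% and 13%. The MEF2 core was in no subunit promoter and in 3.2% of all. The Cox8b window held the E-box and 1 CpG, the Cox8a window a CCAAT match and 11 CpGs, and the Cox6a1 window the NRF1 site at 2 places, the ETS core, CCAAT and 26 CpGs. The median number of CpGs was 15 over the 71 promoters of subunit genes other than the tissue isoforms, 6 over 4 promoters of tissue isoforms and 6 over all promoters. A match is a description of these letters only.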

How the data were processed

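Total RNA of 4 samples was amplified, labelled with Cy3 and hybridised to 1-colour Agilent arrays, per the labels' protocols. The deposited spot intensities, on a linear scale, come from Agilent Feature Extraction, version 10.7.1.1 per the file headers and 9.5.1.1 per the submitters' processing notes. They were background-subtracted and detrended within the array and not scaled between arrays, per the file headers. The series table holds the authors' processed intensities, which followed a quantile normalization of these signals and served as an alternative. How the authors scaled them is not stated in those sources.

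Groups came from the genotype and tissue labels. Log2 processed intensities minus each array's 75th percentile were used, without control spots and without 63 to 134 outlier-flagged spots per array. No spot was saturated. Spots of 1 probe were averaged, and the probe with the highest mean stood for its gene. A gene entered a comparison when well above background on both arrays. Counts used a 2-fold threshold, and the share of all genes past it stands beside the first count of subunit genes in each comparison. For the technical error, 300 probes with 10 spots each were used. Accessions were named through the RefSeq table of GRCm38.p6, with all 84 subunit genes matched, and promoters came from the same release. Coordinates of probes are those of mm9 in the files. The series is arrays alone, so depth is the number of arrays, 1 per group.

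The members and the 15 related lists were chosen with earlier results of these data known. Any member could be named. Values on all arrays were given for members past 2-fold, those furthest each way in each complex, the isoform pairs, the 3 furthest each way in each tissue difference and those whose probes disagree by over 1. For related lists up to 4 members with the largest difference could be named. Alternatives were 4 other scalings, normexp with an offset of 50, 3 filters on dim probes, kept outlier flags, the mean or each of several probes, the authors' values, 2 other fold thresholds and the mean of a list. The 2-fold threshold was tested on simulated differences to which the technical error of spots was added. Python 3.11.15, pandas 2.3.3, R 4.3.3 and limma 3.58.1 were used.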

Additional observations from a re-analysis of the deposited data

Results flagged for a closer look

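Cox6c, a common subunit of complex IV, had opposite signs in the tissues: it was 0.21 higher in the transgenic sample in brainstem/cerebellum and 1.12 lower in spinal cord, so that the spinal cord difference lay 1.33 below the other (a difference of differences of -1.33). With 1 array in each group this difference was not tested, and the array that stood apart, wild-type spinal cord, was alone on its slide. Both signs were the same under all 11 other settings, with 0.03 to 0.33 in brainstem/cerebellum and -1.51 to -0.99 in spinal cord.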

How the results depend on the processing

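Values were recomputed under those of 15 listed alternatives and 2 chosen after seeing the data that apply to them, which are 16 for counts, 15 for medians and 11 for single genes (the added ones are probes over 45% G or C alone, and leaving out the 7 tissue isoforms of complex IV). Of the recomputed counts and medians over all subunit genes, 179 stayed within 1.5 times a count or within the technical spread of a median and 56 moved. Both genotype medians and the transgenic tissue median stayed below 0 under all 15 alternatives run for medians, while the wild-type tissue median, close to 0, and the median difference of differences did not. No paired analysis was possible because each group has 1 array, and for the same reason no replicate could be left out. With each array centred on its median, the median of subunit genes was -0.32 for the genotype difference in brainstem/cerebellum (all genes -0.24), -0.12 for the wild-type tissue difference and -0.16 for the difference of differences, with 1 gene 2-fold lower in the wild-type tissue difference and 3 in the difference of differences. With cyclic loess it was -0.032 in brainstem/cerebellum and -0.37 in spinal cord, with 4 genes 2-fold lower in spinal cord. Scaled on 7 spike-in probes, it was -0.88 for the genotype difference in spinal cord (all genes -0.43), with 27 genes 2-fold lower, -0.66 for the transgenic tissue difference with 4 lower, 0.10 for the wild-type tissue difference, and -0.72 for the difference of differences with 0 higher and 20 lower. Quantile normalization gave a wild-type tissue median of -0.14, the authors' values -0.15, and normexp with quantile normalization -0.15, the last with 3 genes 2-fold lower in the spinal cord genotype difference, 1 lower in the transgenic and 1 higher in the wild-type tissue difference. Taking the mean of the probes of a gene gave 1 gene 2-fold lower in the brainstem/cerebellum genotype difference and 8 lower in the difference of differences. Counting every probe on its own gave 11 lower in the spinal cord genotype difference, 5 lower in the transgenic tissue difference, 4 higher and 1 lower in the wild-type one, and 9 lower in the difference of differences. At 1.5-fold, 29 genes were lower in the spinal cord genotype difference, against 17.7% of all genes. In the transgenic tissue difference 7 were lower, against 2520 of all 17037 genes. In the wild-type one 6 were higher and 1 lower, against 2695 and 1905 of all 16890 genes. In the difference of differences 2 were higher and 18 lower, against 2076 and 2381 of all 16474 genes. At 3-fold the counts were 1 higher and 3 lower in the spinal cord genotype difference, 1 lower in the transgenic and 0 higher in the wild-type tissue difference, and 0 higher and 2 lower in the difference of differences. With probes over 45% G or C the median was -0.18 for the spinal cord genotype difference, -0.20 for each tissue difference and 0.012 for the difference of differences, with 0 genes lower in the spinal cord genotype difference, the transgenic tissue difference and the difference of differences, and 1 higher in the wild-type tissue difference. Without the tissue isoforms, 0 genes were 2-fold higher in either genotype difference, 0 higher and 0 lower in the transgenic tissue difference, 1 higher in the wild-type one, and 0 higher and 3 lower in the difference of differences. Counts given here without a share of all genes do not set the subunit genes apart from other genes. Where a value moved with the threshold, the members counted or the scaling, that construction is what changed. The cause of the other shifts was not tested. Dim genes such as Cox7b2 and Atp5s are limited by signal near background, and their spinal cord differences ranged from -2.02 to -0.70 and from -1.54 to -0.63 over 11 settings.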
